A study of Mus musculus with 5 samples.

Results

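The 36 genes described here encode the proteins that copy chromosomal DNA and supply its building blocks. They were chosen by name from general knowledge of replication. This choice, and that of the further lists below, was made with earlier results of these data known. The 36 include the MCM helicase (Mcm2 to Mcm7) and 10 genes of origin licensing and firing. The others are 16 genes of the polymerases, the sliding clamp and the fork, and 4 genes of nucleotide supply. All are among the 18193 genes with a named probe set, and each of the 36 was represented by its probe set with the highest mean. They were measured in 32D cells, a mouse myeloid progenitor line that grows in interleukin-3, carrying 1 of 5 FLT3-ITD constructs. An ITD, or internal tandem duplication, is a repeated stretch within the FLT3 receptor that keeps its kinase switched on without ligand, and it is a common lesion in acute myeloid leukaemia. The constructs are named ITD78, ITD598, ITD602, ITD611 and ITD613 in the labels, which do not explain the numbers, and each was stably introduced with a retrovirus. All 5 groups shared the same handling, 3 h of starvation followed by 1 h with a tyrosine kinase inhibitor (TKI) that the labels leave unnamed. Whether a line was a clone or a pool is not stated, and cells without a construct were not analysed here. There was 1 Affymetrix array (Mouse430_2) per construct, so no difference could be tested and no p-value is given. Values are log2 RMA values (RMA corrects background, normalises between arrays and gives 1 value per probe set), differences are on the same log2 scale, and an SD is the spread of the other 4 arrays, not of replicates.

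Before S phase, the origin recognition complex, Cdc6 and Cdt1 load the MCM helicase onto DNA, which licenses each origin to fire once. The Cdc7 kinase, switched on by its partner Dbf4, then starts firing, and Cdc45 and the GINS proteins join the helicase to make it unwind DNA. Primase and polymerase alpha lay down primers, the clamp loader RFC puts the PCNA ring on DNA, polymerases delta and epsilon extend the strands, and Fen1 and Lig1 finish and join the lagging-strand fragments. Many of these genes are transcribed at the passage from G1 to S phase under E2F transcription factors.

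The E2F recognition sequence was looked for because many replication genes are known E2F targets, and because E2f2 and E2f8 differed among the arrays while the replication genes went both ways. RefSeq (GRCm38.p6) promoters of 250 bases before to 50 bases after a gene's start were held for 30 of the 36 genes. The words searched, on both strands, were TTTCCCGC, TTTCGCGC, TTTGCCGC and TTTGGCGC, which can overlap on opposite strands. Of these 30 genes, 11 (36.7%) had at least 1 word in a listed promoter, against 2.60% of all 27025 genes with one (704 genes). Counted by promoter, 2.26% of all 32851 windows of this length held a word. The 11 were Mcm3, Mcm5, Mcm6, Mcm7, Orc1, Cdc6, Cdt1, Pola1, Pold1, Rfc3 and Lig1. A word is a match of letters, and whether E2F binds there in 32D cells was not measured.

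The stretches before the start of 5 of these genes are shown because the genes lay on both sides on the ITD613 array. Cdc6, Pola1 and, as deposited, Mcm7 lay above the mean of the other arrays, and Mcm5 and Mcm6 below. In these stretches Cdc6 and Mcm7 share the word TTTCCCGC, read on the opposite strand. Pola1, Mcm5 and Mcm6 share TTTGGCGC, on one strand or the other. After the start, TTTCCCGC also lies in Mcm3, Pold1 and Rfc3, at -0.26, 0.18 and 0.13 on ITD613. TTTGGCGC lies after the start in Mcm3 and Cdt1, the latter at -0.10. Orc1 and Rfc3 also had a word before the start and are not shown. Capitals mark the words, and each stretch is written 5′ to 3′ on the gene's own strand. In Mcm5 and in the first match of Mcm6, words on opposite strands overlap. The stretches are chr8:75109326-75109397 (plus strand) for Mcm5, chr1:128359715-128359845 (minus strand) for Mcm6, chr5:138172011-138172078 (minus strand) for Mcm7, chr11:98907983-98908050 (plus strand) for Cdc6 and chrX:93632256-93632323 (minus strand) for Pola1.
Mcm5: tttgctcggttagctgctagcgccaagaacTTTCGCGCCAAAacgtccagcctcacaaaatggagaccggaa
Mcm6: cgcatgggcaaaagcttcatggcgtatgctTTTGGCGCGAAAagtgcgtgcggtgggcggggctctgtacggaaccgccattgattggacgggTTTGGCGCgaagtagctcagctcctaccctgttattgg
Mcm7: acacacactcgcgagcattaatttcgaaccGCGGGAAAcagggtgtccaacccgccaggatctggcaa
Cdc6: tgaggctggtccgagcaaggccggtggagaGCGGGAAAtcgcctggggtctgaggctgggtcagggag
Pola1: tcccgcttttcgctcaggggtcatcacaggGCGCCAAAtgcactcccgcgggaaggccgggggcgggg

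On the ITD613 array the 11 genes with a word had differences from the mean of the other 4 arrays between -0.26 (Mcm3) and 0.55 (Cdc6), with 5 above 0 and 6 below. The 19 genes with a listed promoter and no word lay between -0.38 and 0.74, with 13 above and 6 below. Of all 9621 genes that passed a low-value filter, 52.2% were above 0 on this array and 47.7% below. The difference between the genes with and without a word was not tested.

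As a whole the replication genes varied little between the constructs. All 36 passed the low-value filter (highest value at least 2.75, the 60th percentile of all values) and read above 3.74, the upper end of the low values that at least 100 probe sets of an array have in common, on every array. The widest gap between any pair of arrays was 0.90 for Tyms, which is 1.87-fold, and the narrowest was 0.077 for Rrm2. The median gap over the 36 genes was 0.31, against 0.43 over the 9621 genes that passed the filter. By the probe set that stood for each gene, none of the 36 spanned 2-fold over the 5 arrays, whereas 10.4% of the 9621 genes did. Of all 65 probe sets of these genes that read above 3.74, 1 did, the second probe set of Fen1, with a gap of 1.16. None lay 2-fold beyond every other array, which 2.41% of genes did on some array.

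**Figure D1:**
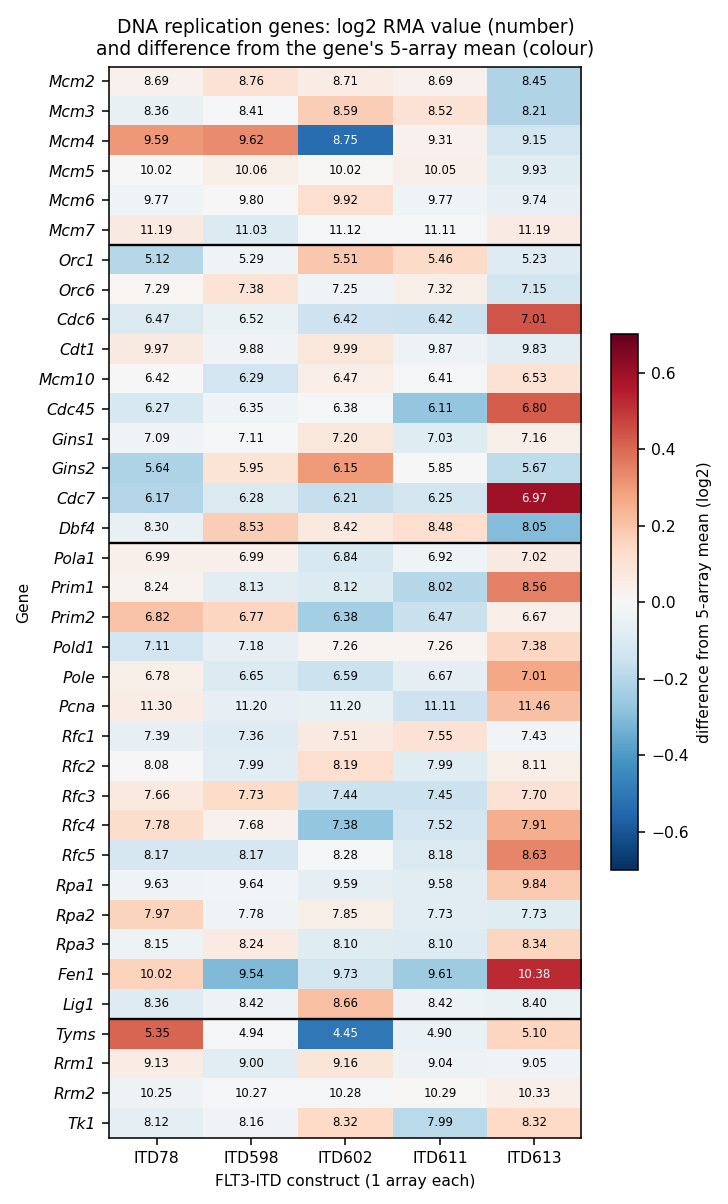
Values of the 36 DNA replication genes (rows, in the 4 groups of the text, separated by black lines) on the 5 construct arrays (columns). Numbers are log2 RMA values and colour is the difference from the gene's own mean over the 5 arrays, so rows are compared within a gene and not with each other. The darkest red cells are Cdc7 (6.97) and Fen1 (10.38) on ITD613, and the darkest blue ones are Mcm4 (8.75) and Tyms (4.45) on ITD602.

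A finer rule counted genes that lay 0.5 or more, on the log2 scale, from the mean of the other 4. On ITD613, 4 of the 36 (11.1%) were higher by this rule, Cdc7, Fen1, Cdc6 and Cdc45, against 12.6% of all genes, and none was lower, against 9.51%. A second probe set of Orc1, not the one that stood for the gene, was lower by 0.84. On ITD602 none was higher (4.39% of all genes) and Mcm4 and Tyms were lower (5.56% of the 36, against 4.06%). ITD78 had Tyms (higher) as its single such gene, where 4.63% of all genes passed in either direction, and ITD598 and ITD611 had none, against 2.87% and 4.02%. These shares were near or below those of all genes, so a distance of 0.5 did not mark out the replication genes as a set.

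Ranking the arrays within each gene gave shares like those of all genes for the whole set, and unlike orders for its groups. ITD613 gave the highest value for 15 of the 36 genes (41.7%; 35.7% of all genes) and the lowest for 8 (22.2%; 29.4%). ITD602 gave the highest value for 10 (27.8%; 30.4%) and the lowest for 7 (19.4%; 18.0%). Within the groups, ITD613 was the highest array for 10 of the 16 polymerase, clamp and fork genes and for none of the 6 MCM helicase genes, of which it was the lowest array for 4. The median difference on ITD613 was 0.19 for the polymerase, clamp and fork genes, 0.11 for nucleotide supply, -0.02 for licensing and firing, -0.13 for the MCM helicase, 0.06 for all 36, and 0.01 for all 9621 genes. With each array's median over the filtered genes subtracted, these medians became 0.11, 0.039, -0.10, -0.21 and -0.0092, beside -0.06 for all genes. That subtraction lowers every gene's ITD613 difference by the same amount, so the sign of the median over all 36, and of Gins1, Mcm7, Prim2, Rfc2 and Rrm2, depended on the scaling. Of the 4 genes higher by 0.5 on ITD613, Cdc7 and Fen1 stayed past it and Cdc6 and Cdc45 did not.

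**Figure D2:**
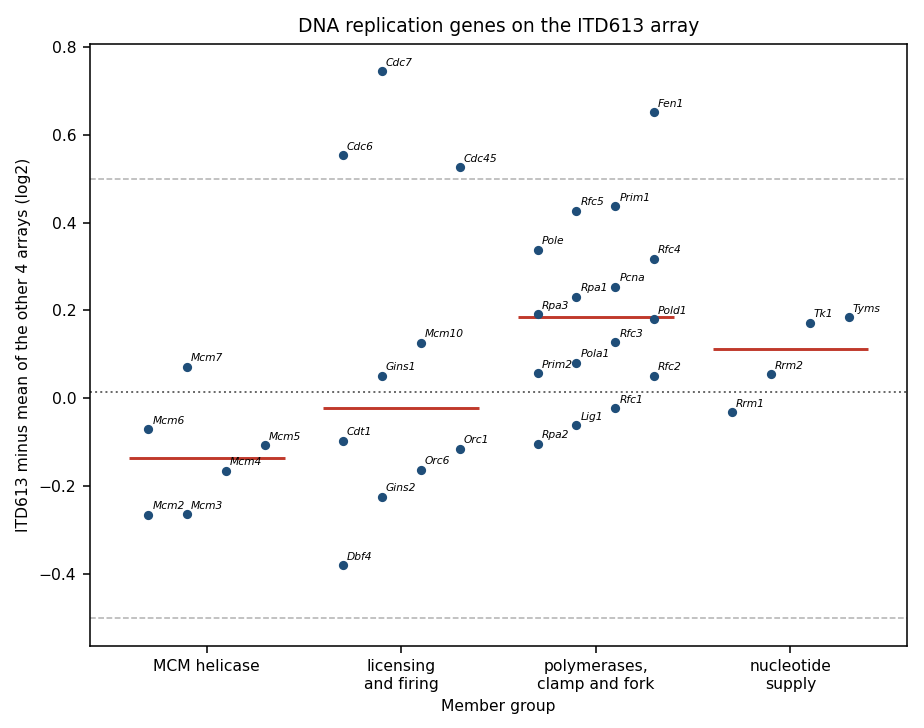
Difference of each replication gene on the ITD613 array from the mean of the other 4 arrays (y axis, log2), by member group (x axis); each point is 1 gene, red bars are group medians, the dotted line is the median of all 9621 genes (0.01) and dashed lines mark 0.5 and -0.5. The red bars run from -0.13 for the MCM helicase to 0.19 for the polymerase, clamp and fork genes, and Cdc7, Fen1, Cdc6 and Cdc45 lie above the upper dashed line.

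The MCM helicase is the ring of 6 related proteins that unwinds the double helix ahead of the fork. In RNA of a whole culture, fewer cells in a cycle phase and less RNA per cell cannot be told apart. The helicase genes were slightly lower on ITD613, with 5 of 6 below the mean of the other 4 arrays (6 of 6 with array medians subtracted), where 47.7% of all genes were. Values below are in the order ITD78, ITD598, ITD602, ITD611 and ITD613. Mcm2 read 8.69, 8.76, 8.71, 8.69 and 8.45, a difference of -0.26 from the other 4 (8.71 ± 0.03, SD). Mcm3 read 8.36, 8.41, 8.59, 8.52 and 8.21, again a difference of -0.26 (8.47 ± 0.10). For both genes the ITD613 value lay below each of the other 4.

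Mcm5, at 10.02, 10.06, 10.02, 10.05 and 9.93, and Mcm6, at 9.77, 9.80, 9.92, 9.77 and 9.74, had smaller differences of -0.11 and -0.07. Mcm7, at 11.19, 11.03, 11.12, 11.11 and 11.19, was the exception at 0.07, which became -0.0015 with array medians subtracted. For Mcm5 and Mcm6 ITD613 was again the lowest array, and for Mcm7 ITD598 was. Second and further probe sets did not all repeat these signs. Among probe sets that read above 3.74, 2 of 3 of Mcm5 and 1 of 2 of Mcm6 were negative on ITD613, and 3 of 4 of Mcm7 were positive.

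Mcm4 had the widest gap of the helicase genes, 0.86, and its low array was ITD602. It read 9.59, 9.62, 8.75, 9.31 and 9.15, so that ITD602 was 0.66 below the mean of the others (9.42 ± 0.22; a 1.58-fold difference). This rested on 1 probe set. The second Mcm4 probe set read 9.18, 9.26, 9.19, 9.28 and 9.18, and its ITD602 difference was -0.04. Mcm6 showed the same split: its chosen probe set had a difference of 0.15 on ITD602, and the other, with values of 9.00, 8.98, 8.36, 8.94 and 8.86, one of -0.58. In both genes the probe set that was low on ITD602 carried the suffix _x_at, which Affymetrix gives to probe sets whose probes can bind other transcripts too. Other _x_at probe sets above 3.74 were mostly close to the other arrays on ITD602. Their differences were 0.01 (Mcm5), 0.03 (Mcm3), -0.01 (Mcm7), 0.03 (Pold1) and -0.01 (Rrm2). Those of Rfc2 were -0.04 and -0.30, and that of Fen1 was -0.16. The chosen Tyms probe set, without this suffix, was at -0.62. The title of the ITD602 array also has a different date-like string from the rest. Its bioB spike control read 6.10 against 2.43 to 2.83 on the other arrays. The part of the suffix, the string or the spike in the low Mcm4 and Mcm6 values was not tested.

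**Figure D3:**
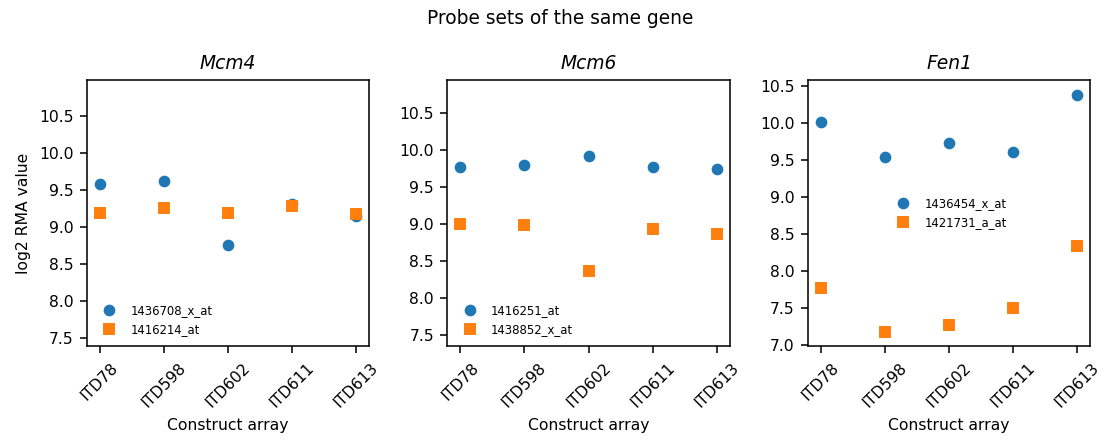
Log2 RMA values (y axis) of the probe sets of Mcm4, Mcm6 and Fen1 that read above 3.74 on every array, on the 5 construct arrays (x axis); each colour and marker is 1 probe set. For Mcm4 and Mcm6 the ITD602 array is low on the _x_at probe set (8.75 and 8.36) and not on the other (9.19 and 9.92), while both Fen1 probe sets are highest on ITD613 (10.38 and 8.33).

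Among the licensing and firing genes the ITD613 array split partners. Cdc7, the kinase that triggers origin firing, read 6.17, 6.28, 6.21, 6.25 and 6.97, a difference of 0.74 (6.23 ± 0.04; 1.68-fold), and the other 4 arrays lay between 6.17 and 6.28. Dbf4, the subunit that activates Cdc7, read 8.30, 8.53, 8.42, 8.48 and 8.05, a difference of -0.38 (8.43 ± 0.10; 1.30-fold). So the kinase gene was highest and its activator gene lowest on the same array. Each had a single probe set above 3.74.

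Cdc6, a loader of the helicase, and Cdc45, which turns the loaded ring into an active helicase, were also highest on ITD613. Cdc6 read 6.47, 6.52, 6.42, 6.42 and 7.01 (difference 0.55 from 6.46 ± 0.05). Cdc45 read 6.27, 6.35, 6.38, 6.11 and 6.80 (difference 0.53 from 6.28 ± 0.12). With array medians subtracted the differences were 0.48 and 0.45, and that of Cdc45 was 0.47 without the ITD611 array, where it was lowest. Both genes had ITD613 above each of the other arrays.

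The remaining loaders and helicase partners did not share this height. Cdt1, the other loader of the helicase, varied least of this group, at 9.97, 9.88, 9.99, 9.87 and 9.83. Orc1, the largest subunit of the origin recognition complex, read 5.12, 5.29, 5.51, 5.46 and 5.23, lowest on ITD78. Its second probe set read 4.88, 5.01, 5.26, 5.25 and 4.27, so that ITD613 was lowest there, with a difference of -0.84 against -0.11 on the first. Both probe sets were highest on ITD602 and put ITD613 below the mean of the others, but they differed in how far and in which array was lowest. Gins2, a GINS subunit, read 5.64, 5.95, 6.15, 5.85 and 5.67, low on both ITD78 and ITD613, but its second probe set differed in sign on ITD613 (0.04 against -0.22). Mcm10, Orc6 and Gins1 spanned 0.17 to 0.23. On the whole group, 5 of 10 genes lay above and 5 below the other arrays on ITD613, and on ITD78 8 of 10 lay below, where 57.2% of all genes did (median -0.10; -0.02 without the ITD613 array).

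The polymerase, clamp and fork genes leaned upwards on ITD613, with 13 of 16 above the mean of the other 4 arrays and a median of 0.19 (11 of 16 and 0.11 with array medians subtracted), where 52.2% of all genes were above. They were higher on ITD613 in 14 of 16 genes against ITD78, 12 against ITD598, 12 against ITD602 and 13 against ITD611, comparisons that share the ITD613 array. Of all genes, 54.0%, 50.3%, 48.5% and 52.3% were higher on ITD613 in the same comparisons. The widest gap was that of Fen1, the nuclease that trims the flaps of lagging-strand fragments. Fen1 read 10.02, 9.54, 9.73, 9.61 and 10.38, a difference of 0.65 on ITD613 (9.72 ± 0.21; 1.57-fold), with ITD78 next. This probe set also ends in _x_at. The second one, which does not, read 7.77, 7.18, 7.27, 7.50 and 8.33, with a difference of 0.91. On both, ITD613 was highest, ITD78 second and ITD598 lowest.

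Prim1, the catalytic subunit of primase, read 8.24, 8.13, 8.12, 8.02 and 8.56 (difference 0.44 from 8.13 ± 0.09). Prim2, its partner subunit, read 6.82, 6.77, 6.38, 6.47 and 6.67, and so was highest on ITD78 and lowest on ITD602, with a difference of 0.06 on ITD613 (-0.017 with array medians subtracted). By the chosen probe sets the primase pair thus did not share an order over the arrays. Second probe sets read 7.73, 7.68, 7.49, 7.59 and 7.99 for Prim1 and 6.32, 6.32, 6.23, 6.30 and 6.46 for Prim2. On these, both genes ran downwards from ITD613 through ITD78, ITD598 and ITD611 to ITD602, with ITD78 and ITD598 tied for Prim2. Pola1, the catalytic subunit of the polymerase bound to primase, was the narrowest of the group at 6.99, 6.99, 6.84, 6.92 and 7.02.

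Pole, the catalytic subunit of polymerase epsilon, which extends the leading strand, read 6.78, 6.65, 6.59, 6.67 and 7.01 (difference 0.34 from 6.67 ± 0.08). Of the clamp loader genes, Rfc5 read 8.17, 8.17, 8.28, 8.18 and 8.63 (difference 0.43 from 8.20 ± 0.05). Rfc4 read 7.78, 7.68, 7.38, 7.52 and 7.91 (difference 0.32 from 7.59 ± 0.18). For all 3 genes ITD613 was the highest array, and for Rfc4 the next array, ITD78, was nearer to it than the others. The remaining loader genes were nearer to 0, at 0.13 for Rfc3, 0.05 for Rfc2 and -0.02 for Rfc1. Both other probe sets of Rfc1 were positive on ITD613, up to 0.41, and 1 of 3 of Rfc2 was negative.

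The 9 further genes of this group spanned 0.19 to 0.35. Pcna, the sliding clamp itself, was 0.25 higher on ITD613, Rpa1 and Rpa3, subunits of the single-strand binding protein, 0.23 and 0.19, and Pold1, the catalytic subunit of polymerase delta, 0.18. Rpa2 and the ligase gene Lig1 were on the other side, at -0.10 and -0.06. ITD78 was the second highest array for 6 of the 10 genes that peaked on ITD613, namely Pola1 (tied with ITD598), Prim1, Pole, Pcna, Rfc4 and Fen1. The second Rfc4 probe set put ITD598 (7.25) above ITD78 (7.21). Of all genes that peaked on ITD613, ITD78 was second for 50.5%.

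By their chosen probe sets, the nucleotide supply genes were close on all arrays apart from Tyms. Tyms, thymidylate synthase, which makes the thymidine nucleotide, read 5.35, 4.94, 4.45, 4.90 and 5.10. ITD602 lay 0.62 below the others (5.07 ± 0.21; 1.54-fold), and ITD78 lay 0.51 above (4.85 ± 0.28), or 0.37 above without the ITD602 array. Its 3 other probe sets read in the range of shared values and add nothing to this.

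Rrm1 and Rrm2, the large and small subunits of ribonucleotide reductase, which makes deoxynucleotides from ribonucleotides, were nearly flat by their chosen probe sets. Rrm1 read 9.13, 9.00, 9.16, 9.04 and 9.05, and Rrm2 read 10.25, 10.27, 10.28, 10.29 and 10.33. A second Rrm1 probe set read 6.84, 6.36, 6.71, 6.93 and 6.63, a gap of 0.58. Its difference on ITD611 was 0.30, against -0.04 on the chosen probe set. The other Rrm2 probe sets spanned 0.15 and 0.29. Tk1, the thymidine kinase of the salvage route, read 8.12, 8.16, 8.32, 7.99 and 8.32, equal at this rounding on ITD602 and ITD613 and lowest on ITD611.

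Pairs of arrays were set side by side for size. The median absolute difference over the 36 genes ran from 0.075 between ITD598 and ITD611 to 0.25 between ITD602 and ITD613. Over all filtered genes the same pairs gave 0.086 and 0.29. In each of the 10 pairs the value of the 36 was the smaller.

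Of 32 other genes of the replication machinery, all of which passed the filter, 4 were at least 0.5 higher on ITD613 and none lower, with a median of 0.10 (2, 1 and 0.029 with array medians subtracted). Its count of higher genes was near the background of 12.6% of all genes, and so says nothing particular about this list. The 3 with the widest gaps were Donson, Chtf18 and Rnaseh2a. Donson, a fork protein, read 6.19, 6.39, 6.16, 6.16 and 7.03 (difference 0.81), and Rnaseh2a, the catalytic subunit of RNase H2, read 5.90, 5.81, 5.81, 5.61 and 6.33 (difference 0.55). Chtf18, of an alternative clamp loader, read 3.25 to 3.46 on the other arrays and 3.99 on ITD613 (difference 0.64), partly in the range of shared values. Like the 36, this wider list held no gene that spanned 2-fold.

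The 15 other nucleotide synthesis genes that passed leaned the opposite way, with a median of -0.16 on ITD613. On that array 12 lay below the mean of the other arrays, where 47.7% of all genes did. It was the lowest array for 9 (60%, against 29.4% of all genes). As deposited, 2 were at least 0.5 higher and 2 lower, near the 12.6% and 9.51% of all genes. The lower count rose to 4 with array medians subtracted and to 3 with quantile normalization. Dck, the salvage kinase for deoxycytidine, read 8.48, 8.52, 7.97, 8.34 and 8.91, lowest on ITD602 as Tyms was. Samhd1, which breaks down deoxynucleotides, read 6.02, 6.51, 6.57, 6.53 and 5.77, lowest on ITD613. Tk2, the mitochondrial thymidine kinase, read 2.32 to 3.18, all in the range of shared values. It passed the filter only through ITD613 (3.18, against 2.32 to 2.49 elsewhere). Its place among the 2 counted as higher there, beside Dck, was thus set by the filter.

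The G1/S regulators stood higher on ITD613, with a median of 0.41, 6 of 12 at least 0.5 higher and none lower (0.33 and 4 with array medians subtracted), against 12.6% and 9.51% of all genes. E2f2, an activating E2F factor, read 6.79, 5.86, 5.60, 5.71 and 7.60, a difference of 1.61 (5.99 ± 0.54). E2f8, a repressing member of the family, read 8.47, 8.13, 7.97, 7.96 and 8.96 (difference 0.82), and Ccne2, a cyclin of S phase entry, read 7.67, 7.77, 7.17, 7.57 and 8.24 (difference 0.69). E2f2 and E2f8 were second highest on ITD78. E2f1, named here after its value was seen, was at -0.06.

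Of 9 genes that restore chromatin behind the fork, 2 were at least 0.5 higher and 1 lower on ITD613, with a median of 0.07 (-0.0047 with array medians subtracted). Over all genes 12.6% were higher and 9.51% lower, so the count lower was near the background. The histone chaperone gene Asf1b read 7.64, 7.49, 7.49, 7.32 and 8.33, and Slbp, which binds replication-dependent histone mRNA, read 9.47, 9.34, 9.22, 9.34 and 9.87. Hells, a chromatin remodelling gene, went the other way, at 8.86, 8.77, 8.79, 8.84 and 8.30. Mitosis genes were higher on ITD613, with a median of 0.33 and 4 of 11 at least 0.5 higher, none lower (0.25 and 3 with array medians subtracted), against the same 12.6% and 9.51%. Kif11, a spindle motor, read 7.69, 7.19, 7.06, 7.15 and 8.01, Mki67, a marker of cycling cells, 10.19, 9.94, 9.67, 9.88 and 10.56, and Top2a, which untangles DNA, 10.31, 10.06, 9.98, 10.04 and 10.67.

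**Figure D4:**
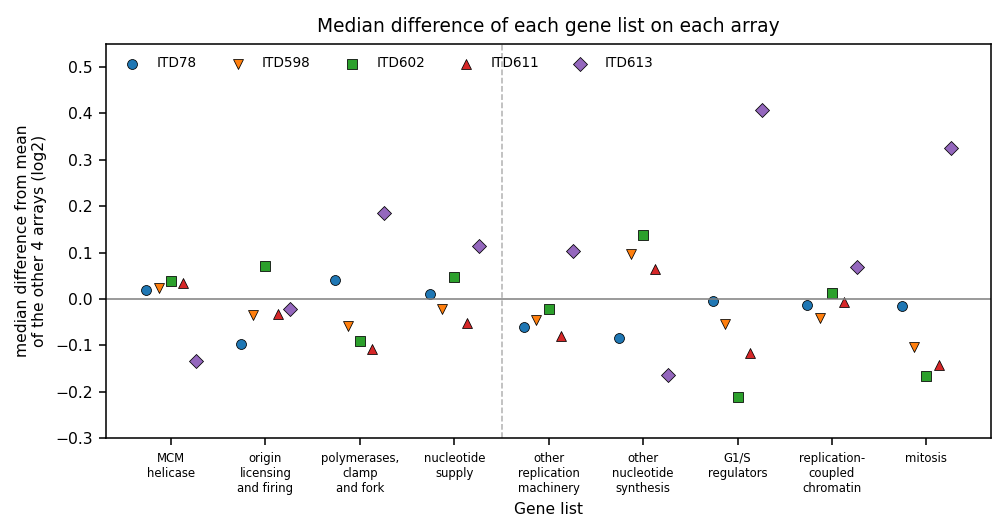
Median difference from the mean of the other 4 arrays (y axis, log2) for the 4 groups of replication genes (left of the dashed line) and 5 further lists (right), with 1 marker per construct array. Within a list, ITD613 is the lowest of the 5 arrays for the MCM helicase (-0.13) and other nucleotide synthesis (-0.16), and the highest for, among others, the polymerase, clamp and fork genes (0.19), the G1/S regulators (0.41) and mitosis (0.33).

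Lineage markers also differed on ITD613. Of 10 markers of myeloid progenitors 6 passed the filter, while Kit, Cebpa, Elane and Cd33 read below it on every array. Of these 6, 5 were at least 0.5 lower on ITD613, against 9.51% of all genes. The list's summed linear level was 459 there, 728 on ITD78 and 1487 to 1711 on the other 3. Of 5 erythroid markers that passed (of 7 with a probe set), 4 were at least 0.5 higher on ITD613, against 12.6% of all genes. These were Klf1, Gata1, Slc4a1 and Ermap, while Epor was at -0.10. Slc4a1 and Ermap passed the filter only through ITD613 and ITD78, and Hba-a1 and Alas2 did not pass. The erythroid sums were 1403 on ITD613, 536 on ITD78 and 181 to 262 elsewhere. The largest values in the ITD613 sum were those of Klf1 (10.01) and Gata1 (8.14). Each sum runs over all markers of a list with a probe set, including those below the filter. Mast cell markers (4 of 8 passed) summed to 108 on ITD613 and 38.6 to 85.6 elsewhere. Of the 4 that passed, 3 were highest on ITD613, as were 35.7% of all genes. Of these 3, Fcer1a passed the filter only through ITD613 (3.96, against 0.67 to 0.72 elsewhere), and Hdc read 2.74 to 2.98. The remaining one that passed, Mcpt8, read 5.70 on ITD613, 5.94 on ITD598 and 2.90 on ITD78. Macrophage markers (3 of 5 with a probe set passed) summed to 26.7 on ITD613 and 39.1 to 227 elsewhere. Lymphoid markers (1 of 5 passed) summed to 40.1 to 46.5 and fibroblast markers (0 of 6 passed) to 15.8 to 18.3. The 3′ minus 5′ difference of the Gapdh control was 0.56 on ITD613 and 0.59 on ITD611, against 0.30 to 0.34 on the other 3. That of beta-actin was 1.41 on ITD613 and 1.56 on ITD611, against 1.19 to 1.25. The part of cell type or RNA quality in the differences of the replication genes was not tested.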

How the data were processed

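Total RNA of 5 samples was labelled with biotin and hybridised to 5 arrays, 1 per construct. The deposited log2 values were made by the authors with RMA, per the submitters' processing notes. The RMA version and chip definition are not given in the sources used here. Base 2 was inferred, since the highest value (13.45) exceeds the natural log of the largest 16-bit reading (11.09). Of 45101 probe sets, 34945 had 1 gene symbol in the platform annotation and were used, 932 had several, 64 were controls and 9160 were unnamed. The probe set with the highest mean stood for its gene. Gene IDs of all 36 genes kept their symbol in RefSeq (GRCm38.p6).

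The genes, groups and other lists were chosen with earlier results of these data known. Values on all arrays are given for every MCM and nucleotide supply gene, and in the other 2 groups for the 6 with the widest range and the 1 with the narrowest; in each further list up to 3 with the widest range are named. Other genes are given by difference or range. Rules were tried on simulated arrays with planted shifts. The noise there was sized from ITD598 and ITD611, the closest pair of arrays over all filtered genes, so larger noise was not tried. Alternatives were another choice or mean of probe sets, other scaling, centre and filters, low values raised to 3.74, and each array left out. Python 3.11.15, pandas 2.3.3 and numpy 2.4.6 were used.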

Additional observations from a re-analysis of the deposited data

How the results depend on the processing

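No paired analysis was possible because each construct has 1 array. No called difference of a named gene changed sign, and the count of genes set 2-fold apart stayed at 0 in all 14 alternatives. The other filters, the other centre and the raising of low values to 3.74 could not change this count. A median was taken as moved where it shifted by at least the SD of the same median over the other 4 arrays, a small measure for the MCM helicase; the cause of the shifts was not tested. With array medians subtracted, the medians on ITD613 were -0.21 (MCM helicase), -0.10 (licensing and firing), 0.11 (polymerases, clamp and fork), 0.039 (nucleotide supply) and -0.0092 (all 36), those on ITD78 0.052 (all 36) and -0.044 (licensing and firing), genes at least 0.5 higher on ITD613 were 2, and genes lowest on ITD602 were 12. With the mean of all probe sets, medians on ITD613 were -0.091 (MCM helicase), -0.13 (licensing and firing) and 0.0499 (nucleotide supply), and that of licensing and firing on ITD602 was 0.019; 2 genes were at least 0.5 higher on ITD613, 0 higher on ITD78 and 0 lower on ITD602, and 2 MCM genes were lowest on ITD613. With _x_at and _s_at probe sets left out, the MCM helicase medians were -0.064 on ITD613, 0.16 on ITD602, -0.076 on ITD78 and -0.12 on ITD598, with 1 gene at least 0.5 lower on ITD602 and 1 on ITD598. Quantile normalization gave an MCM median of -0.10 on ITD613. Against the median of the other arrays it was -0.18, licensing and firing on ITD598 was 0.037 and 0 genes were higher on ITD78. With the mean of probe sets above 3.74, an alternative chosen after seeing the data, the median of all 36 on ITD613 was 0.10 and of the MCM helicase -0.066, 1 gene was lower on ITD602 and 2 MCM genes were lowest on ITD613. With each array left out in turn, medians on ITD613 ran from -0.17 to -0.0875 for the MCM helicase, from 0.043 (without ITD602) to 0.12 for nucleotide supply and from 0.064 to 0.099 for all 36. Those of nucleotide supply on ITD611 ran from -0.11 (without ITD602) to -0.013, and those of licensing and firing from -0.0496 to 0.067 (without ITD613) on ITD598 and from -0.12 to -0.022 (without ITD613) on ITD78. Genes at least 0.5 higher ran from 0 to 2 on ITD78 and from 0 to 1 on ITD598, and genes lowest on ITD602 from 7 to 11 (without ITD611). Depth is not defined for arrays; having 1 array per construct limits the precision.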
